A study of Homo sapiens with 16 samples.

Results

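The measurements below concern 42 genes of the cell division cycle in breast cancer cells after the polycomb protein EZH2 or its partner EED was reduced, or EZH2 was added. The list holds 20 genes that act before and during DNA replication and 22 genes that act in mitosis. Genes enter by name and not by a cut on a measured value, but the lists were chosen with earlier results of these data known. For each gene the transcript cluster that the platform annotation assigns to that gene alone was taken. BIRC5 had 2 such clusters, and the brighter one was kept. All 42 genes had a cluster, out of 18417 genes with a cluster of their own on the array.

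The study profiled total RNA of the breast cancer lines HCC70 and MDA-MB-468 on 16 gene expression arrays, in 8 groups of 2. HCC70 cells carried an shRNA against EZH2 (shEZH2), an shRNA against EED (shEED), EZH2 cDNA, an empty vector, or scrambled shRNA in a pair of arrays named a and another named b. MDA-MB-468 cells carried shEZH2 or scrambled shRNA. The series describes 4 treatments in duplicate, each with a control of its own, but the labels do not state which scrambled pair, set a or set b, belongs to shEZH2 and which to shEED. Each HCC70 knockdown is therefore given against both. All groups, controls included, were infected with virus in 6 ug/ml polybrene, placed in 1 ug/ml puromycin 48 h after infection and seeded at equal confluence 24 h before RNA was taken. HCC70 and MDA-MB-468 are established lines, usually classed as basal-like and lacking hormone receptors. The labels describe stable infection and name neither a clone, an shRNA sequence nor separate infections, so p-values measure the spread between duplicate arrays, which may be technical.

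EZH2 is the enzyme of polycomb repressive complex 2, which methylates histone H3 at lysine 27, and EED is the subunit that binds the finished mark and keeps the enzyme active. A dividing cell first loads the MCM helicase onto replication origins, then copies its DNA at forks held by PCNA, and makes the deoxynucleotides it needs. It then builds up cyclin B and CDK1 for entry into mitosis, where Aurora and Polo kinases, kinesins and the spindle checkpoint separate the chromosomes. Genes of the first group are classical targets of E2F transcription factors. Genes of the second are switched on later, through CCAAT boxes bound by NF-Y and through the cell cycle genes homology region, or CHR, bound by the DREAM and B-MYB complexes. In bulk RNA, more cells in a phase and more RNA per cell in that phase cannot be told apart.

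Promoter sequences were compared because the replication and the mitotic genes are described separately here. RefSeq windows (GRCh38.p14) from 250 bases before to 50 bases after a gene start were matched for 34 of the 42 genes. They were 17 in each group, all but MCM4, MCM5, CCNE2, FOXM1, AURKA, TTK, BIRC5 and TPX2. Each gene had 1 window, at its outermost annotated start where available and otherwise the first listed. The outermost start was used for 32 of the 34 and for 13820 of 15843 protein-coding windows. Any other start of a gene was not searched. The motifs, searched on both strands, were E2F as any of TTTCCCGC, TTTCGCGC, TTTGCCGC or TTTGGCGC, CHR as TTTGAA, and CCAAT. An E2F motif lay in 12 of 17 replication windows (70.6%) and 2 of 17 mitotic windows (11.8%), against 4.45% of all 15843 protein-coding windows. A CHR lay in 1 replication window (5.88%), that of RRM1, and in 10 mitotic windows (58.8%), against 12.3% of all windows. CCAAT lay in 64.7% and 82.4%, against 36.4%. Both CHR and CCAAT were in 9 mitotic windows (52.9%) and 5.12% of all. A letter match is a description and not a binding site.

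The 250 bases before the gene start follow for the 2 replication and 2 mitotic genes of these 34 that changed in most treatment comparisons, ties going to the lowest adjusted p, with every match in capitals. The replication genes are RRM1, the large subunit of ribonucleotide reductase (chr11:4094435-4094684, plus strand), and CDC25A, the phosphatase that opens the G1/S transition (chr3:48188418-48188667, minus strand).
RRM1: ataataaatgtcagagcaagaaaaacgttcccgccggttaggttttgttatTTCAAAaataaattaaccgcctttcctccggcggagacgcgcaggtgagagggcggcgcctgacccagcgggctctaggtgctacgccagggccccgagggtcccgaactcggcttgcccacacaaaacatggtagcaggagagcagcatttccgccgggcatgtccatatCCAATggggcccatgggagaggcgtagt
CDC25A: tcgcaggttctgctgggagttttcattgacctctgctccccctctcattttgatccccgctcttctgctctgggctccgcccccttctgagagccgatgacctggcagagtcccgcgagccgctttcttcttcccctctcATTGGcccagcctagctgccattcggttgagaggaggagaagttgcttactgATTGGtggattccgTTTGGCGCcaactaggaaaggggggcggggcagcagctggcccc
The mitotic genes are KIF11, the kinesin that pushes spindle poles apart (chr10:92592880-92593129, plus strand), and CDC25C, the phosphatase that activates CDK1 (chr5:138338356-138338605, minus strand).
KIF11: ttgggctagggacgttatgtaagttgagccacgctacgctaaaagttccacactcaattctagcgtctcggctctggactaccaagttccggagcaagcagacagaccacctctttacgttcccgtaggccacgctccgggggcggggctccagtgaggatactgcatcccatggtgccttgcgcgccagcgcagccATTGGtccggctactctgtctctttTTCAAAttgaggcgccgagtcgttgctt
CDC25C: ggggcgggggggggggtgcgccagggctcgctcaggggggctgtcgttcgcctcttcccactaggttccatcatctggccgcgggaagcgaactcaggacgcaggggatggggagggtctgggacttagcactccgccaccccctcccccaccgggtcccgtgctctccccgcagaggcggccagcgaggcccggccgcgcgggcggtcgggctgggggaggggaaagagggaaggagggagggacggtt
CDC25A held an E2F motif and 2 CCAAT boxes, and KIF11 a CCAAT box and, nearer the start, a CHR, both read on the opposite strand. RRM1 held a CCAAT box and a CHR but none of the E2F forms, and the CDC25C window held no match. MCM6 (chr2:135876444-135876693, minus strand), a helicase subunit, and CCNB2 (chr15:59104896-59105145, plus strand), a mitotic cyclin, were added after their matches had been seen, to show repeated elements. In MCM6 each run TTTGGCGCGAAA is an E2F form overlapping another on the opposite strand. CCNB2 held 4 CCAAT boxes and a CHR.
MCM6: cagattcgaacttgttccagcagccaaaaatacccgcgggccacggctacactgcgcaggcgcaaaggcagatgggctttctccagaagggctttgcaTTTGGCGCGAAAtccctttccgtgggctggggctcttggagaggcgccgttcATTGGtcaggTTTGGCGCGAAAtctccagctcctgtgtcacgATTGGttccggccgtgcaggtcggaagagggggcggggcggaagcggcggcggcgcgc
CCNB2: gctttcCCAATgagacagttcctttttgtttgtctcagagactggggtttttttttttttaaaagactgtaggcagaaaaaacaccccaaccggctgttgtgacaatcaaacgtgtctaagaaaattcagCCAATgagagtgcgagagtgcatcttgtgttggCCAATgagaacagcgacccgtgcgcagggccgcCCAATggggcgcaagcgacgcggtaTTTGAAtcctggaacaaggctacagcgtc

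Values are log2 signals, so that a difference of 1 is a 2-fold difference, and array medians over all 33297 clusters ran from 5.37 to 5.53. Of these, 16175 clusters with a log2 signal of at least 6 on 2 or more arrays were tested with limma, and a gene counts as changed at a Benjamini-Hochberg adjusted p under 0.05 over all of them. All 42 genes were tested, and each was at 6 or more on at least 15 of the 16 arrays, between 5.95 and 11.42. Duplicate arrays correlated over all clusters at 0.994 to 0.997. EPCAM, CDH1, KRT8, KRT18, KRT19, KRT5, KRT14 and EGFR were above 6 on all 16 arrays. Of the 9 markers of blood, vessel and stromal cells measured, 7 stayed below 6 on every array, PTPRC, PECAM1 and DCN among them, while CD68 and COL1A1 were above 6 on all. CD68 and COL1A1 were both higher with shEZH2 against set b (1.01 and 0.47) and in HCC70 than in MDA-MB-468 with either set, and CD68 was lower in set b than in set a (-0.72). Their part in the results was not tested.

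The targeted genes followed the labels in the knockdown arrays. EZH2 measured 10.01 and 10.00 on the set a arrays, 10.08 and 10.06 on set b, 8.50 and 8.58 with shEZH2 and 9.86 and 9.81 with shEED. It was 9.94 and 9.94 with the empty vector and 10.20 and 10.27 with EZH2 cDNA. In MDA-MB-468 it was 10.07 and 10.14 with scrambled shRNA and 8.39 and 8.48 with shEZH2. With shEZH2, EZH2 thus fell by 1.47 against set a, 1.53 against set b and 1.67 in MDA-MB-468. With shEED, EZH2 was lower as well, by 0.24 against set b, past the threshold, and both shEED arrays lay below both set a arrays. With EZH2 cDNA it was 0.29 higher (adjusted p = 0.0961), which missed the threshold, and whether the probes cover the added cDNA is not known. EED measured 8.77 and 8.67 on set a, 8.35 and 8.31 on set b and 7.54 and 7.49 with shEED, a fall of 0.82 from set b and 1.21 from set a. The sets themselves differed in EED, set b being lower (-0.38, adjusted p = 0.0219).

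With shEED in HCC70, 10 of the 22 mitotic genes rose against either scrambled set and none fell, while the few replication genes that changed went both ways. Against set b, those 10 mitotic genes came with 2 of 20 replication genes that rose and 2 that fell, where 6.63% of all clusters rose and 7.53% fell (14.2% in all). Against set a there were 10 mitotic rises, and 4 replication genes rose and 1 fell, where 22.8% of all clusters rose and 13.9% fell (36.7% in all). The median change of the mitotic genes was 0.32 against each set, that of the replication genes -0.0091 and 0.14, and that of all clusters 0.024 and 0.033. AURKA, CCNB1, CCNB2, CDC25C, CDK1, CENPF, KIF11, KIF20A and NUSAP1 rose against both sets, as did RRM1, and MCM5 fell against both. The comparisons share the shEED arrays. Over all clusters 4.9% rose against both sets and 4.74% fell against both. Epithelial and basal-like markers moved as well. Of 5 epithelial markers 3 fell against each set, CDH1 (-0.34), KRT8 (-0.53) and KRT19 (-0.27) against set b and EPCAM (-0.52), KRT8 (-0.58) and KRT19 (-0.40) against set a. Of 3 basal-like markers KRT5 and KRT14 fell against each, by 0.28 and 0.56 against set b and by 0.55 and 1.30 against set a. CD68 fell against set a (-0.92), and neither CD68 nor COL1A1 passed against set b. The part of these markers in the mitotic counts was not tested.

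**Figure D1:**
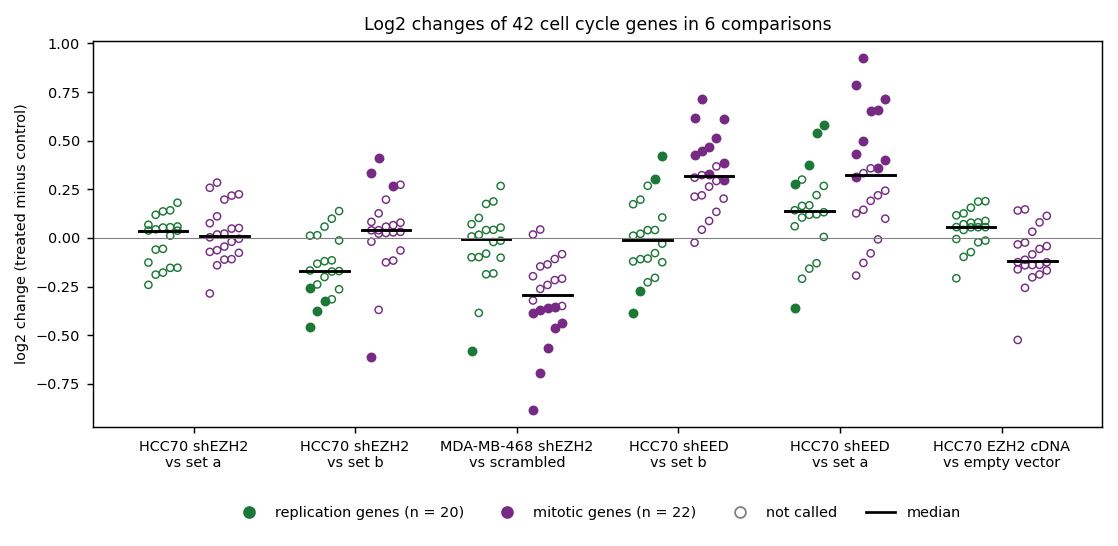
Log2 change of each of the 42 genes (points; replication green, mitotic purple; filled where the adjusted p is under 0.05) in 6 comparisons, with the median of each group as a bar. With shEED the mitotic medians lay at 0.32 against either set, and with shEZH2 in MDA-MB-468 the mitotic median lay at -0.29.

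Among the genes of mitotic entry, 4 of 6 rose with shEED against each set. CDK1 is the kinase that drives entry, and CCNB2, like CCNB1, is one of its cyclins. CDK1 measured 8.68 and 8.80 on the set a arrays, 8.92 and 8.93 on the set b arrays, 9.30 and 9.48 with shEED, 8.93 and 8.98 with shEZH2, 8.77 and 9.26 with the empty vector and 8.83 and 8.93 with EZH2 cDNA in HCC70. Both shEED arrays lay above all other HCC70 arrays. The change was 0.47 (SE 0.13, adjusted p = 0.0391) against set b and 0.65 (SE 0.13, adjusted p = 0.00284) against set a. CCNB2 measured 10.07 and 10.18 on the set a arrays, 10.04 and 10.04 on the set b arrays, 10.42 and 10.57 with shEED, 10.09 and 10.16 with shEZH2, 10.02 and 10.21 with the empty vector and 9.95 and 10.03 with EZH2 cDNA in HCC70. Here too both shEED arrays stood highest in the line, with changes of 0.45 (SE 0.085, adjusted p = 0.00418) and 0.36 (SE 0.085, adjusted p = 0.00603). CDC25C measured 6.89 and 6.85 on the set a arrays, 6.71 and 6.67 on the set b arrays, 7.23 and 7.38 with shEED, 7.07 and 7.12 with shEZH2, 6.76 and 6.91 with the empty vector and 6.63 and 6.52 with EZH2 cDNA in HCC70. The shEED arrays were again the highest of HCC70 and the shEZH2 arrays came next, without overlap with either scrambled set. CDC25C rose by 0.62 (SE 0.081, adjusted p = 0.000407) and 0.43 (SE 0.081, adjusted p = 0.00166) with shEED. CCNB1 rose by 0.33 and 0.32. CCNA2, the S and G2 cyclin, was at 0.087 and 0.10, and FOXM1, a transcription factor of this gene group, at 0.20 and 0.14, neither past the threshold.

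Of the mitotic kinases and checkpoint genes, AURKA, the kinase of centrosome maturation, had the largest rise against set b. AURKA measured 9.33 and 9.44 on the set a arrays, 9.40 and 9.36 on the set b arrays, 10.09 and 10.10 with shEED, 9.52 and 9.29 with shEZH2, 9.77 and 9.78 with the empty vector and 9.25 and 9.26 with EZH2 cDNA in HCC70. The shEED arrays stood above all others in HCC70, and the empty vector arrays above the remaining ones. The rise was 0.71 (SE 0.12, adjusted p = 0.00161) against set b, or 1.64-fold, and 0.71 (SE 0.12, adjusted p = 0.00062) against set a. CDC20, the activator of the anaphase promoting complex, rose against set b (0.30, adjusted p = 0.03) but was at -0.079 against set a. It had the smallest rise of the mitotic genes that passed against set b. The other 6 genes of this group, AURKB, BUB1, BUB1B, TTK, PLK1 and BIRC5, passed against neither set, with changes from -0.19 for BIRC5 to 0.33 for TTK, both against set a.

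Spindle and kinetochore genes gave 4 rises of 6 against set b and 5 against set a. KIF11 measured 8.74 and 8.87 on the set a arrays, 9.32 and 9.37 on the set b arrays, 9.73 and 9.73 with shEED, 8.81 and 8.66 with shEZH2, 9.32 and 9.39 with the empty vector and 9.20 and 9.18 with EZH2 cDNA in HCC70. The shEED arrays were highest, set a and shEZH2 lay together at the bottom, and set b and the empty vector lay together between them. The KIF11 rise was 0.92 (SE 0.10, adjusted p = 3.43e-05) against set a, or 1.9-fold, and 0.38 (SE 0.10, adjusted p = 0.0216) against set b. NUSAP1 binds and bundles spindle microtubules. NUSAP1 measured 9.06 and 9.08 on the set a arrays, 9.24 and 9.25 on the set b arrays, 9.68 and 10.02 with shEED, 9.22 and 9.31 with shEZH2, 9.28 and 9.46 with the empty vector and 9.14 and 9.22 with EZH2 cDNA in HCC70. It rose by 0.61 (SE 0.13, adjusted p = 0.00828) and 0.79 (SE 0.13, adjusted p = 0.000715), and its shEED duplicates were further apart than those of any other HCC70 group. KIF20A, a kinesin of cytokinesis, rose by 0.51 (SE 0.094, adjusted p = 0.00363) and 0.50 (SE 0.094, adjusted p = 0.00173). KIF20A measured 9.10 and 9.04 on the set a arrays, 9.04 and 9.07 on the set b arrays, 9.49 and 9.63 with shEED, 9.47 and 9.18 with shEZH2, 9.14 and 9.23 with the empty vector and 9.10 and 9.05 with EZH2 cDNA in HCC70. The higher shEZH2 array, at 9.47, came close to the lower shEED array without overlap. CENPF, an outer kinetochore protein, rose by 0.42 (SE 0.095, adjusted p = 0.0108) and 0.40 (SE 0.095, adjusted p = 0.00611). CENPF measured 9.03 and 8.97 on the set a arrays, 8.94 and 9.01 on the set b arrays, 9.33 and 9.47 with shEED, 9.12 and 8.91 with shEZH2, 8.86 and 8.93 with the empty vector and 9.00 and 9.01 with EZH2 cDNA in HCC70. CENPE, the kinetochore kinesin, passed against set a only (0.66, adjusted p = 0.0203, against 0.31, adjusted p = 0.352), and TPX2, which targets Aurora A to the spindle, was at 0.22 and 0.19 without passing. The chromosome genes MKI67 (0.37 and 0.36) and TOP2A (0.26 and 0.22) were higher on both shEED arrays than on all 4 scrambled arrays and passed against neither set.

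The replication genes are described here by role. None of the 8 origin licensing genes rose, where 6.63% of all clusters rose against set b and 22.8% against set a. Of the 8, 2 fell against set b and 1 against set a, where 7.53% and 13.9% of all clusters fell. Whether licensing genes differ from all clusters was not tested. MCM5, a subunit of the MCM helicase, fell against both sets. MCM5 measured 10.28 and 10.24 on the set a arrays, 10.32 and 10.25 on the set b arrays, 9.94 and 9.86 with shEED, 10.35 and 10.25 with shEZH2, 10.10 and 10.08 with the empty vector and 10.36 and 10.20 with EZH2 cDNA in HCC70. The shEED arrays were the lowest of the line. The fall was -0.38 (SE 0.082, adjusted p = 0.00835) and -0.36 (SE 0.082, adjusted p = 0.00503). MCM4 fell against set b (-0.27, adjusted p = 0.0456) and was at -0.13 against set a. CDC6, which loads the helicase, was at -0.23 and -0.21 without passing. The other licensing genes, MCM2, MCM3, MCM6, MCM7 and CDT1, ran from -0.13 for CDT1 against set b to 0.17 for CDT1 against set a.

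Nucleotide supply and fork genes moved upward where they passed. RRM1 measured 9.57 and 9.55 on the set a arrays, 9.74 and 9.70 on the set b arrays, 10.13 and 10.15 with shEED, 9.72 and 9.49 with shEZH2, 9.60 and 9.72 with the empty vector and 9.61 and 9.69 with EZH2 cDNA in HCC70. The shEED arrays lay apart from all other HCC70 arrays, and RRM1 rose by 0.42 (SE 0.085, adjusted p = 0.00611) and 0.58 (SE 0.085, adjusted p = 0.000312). RRM2, the small subunit of the same enzyme, rose against set a (0.54, SE 0.10, adjusted p = 0.0012) and was at 0.20 against set b, which itself was higher than set a by 0.34. PCNA, the sliding clamp, rose against set b (0.30, adjusted p = 0.0263) and stood at 0.22 against set a (adjusted p = 0.0501). POLE2, a subunit of the leading strand polymerase, rose against set a (0.28, adjusted p = 0.0318), the smallest rise to pass there. CDC25A rose against set a (0.37, SE 0.089, adjusted p = 0.00657) and was at 0.041 against set b. CDC25A measured 7.30 and 7.10 on the set a arrays, 7.53 and 7.53 on the set b arrays, 7.59 and 7.55 with shEED, 7.07 and 7.07 with shEZH2, 7.09 and 7.16 with the empty vector and 7.29 and 7.34 with EZH2 cDNA in HCC70. Set b and shEED lay together as the highest of the line, and shEZH2 was lowest. GINS2, CDC45, TYMS, CCNE1, CCNE2, E2F1 and CHEK1 passed against neither set.

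The count of raised mitotic genes against set b depended on each array. It became smaller without any 1 of the 4 arrays, as did the number of all clusters that rose. The count was 6 with each array centred on its median, where 771 of 16175 clusters rose. It was 17 when only the 4 arrays compared were fitted, where 2570 of 14718 clusters rose. Against set a the count was also smaller without any 1 array, as was the number of all clusters that rose. AURKA, CDC25C and KIF20A passed against both sets whichever array was left out. CCNB2 and CENPF lost their calls against either set without shEED replicate 2, CCNB2 also against set a without set a replicate 1, and CENPF also against set b without set b replicate 1. Against set b, CDK1, KIF11, CCNB1, CDC20, PCNA and MCM4 lost their calls without any 1 of the 4 arrays, NUSAP1 lost its call in 3 of the 4 cases, and MCM5 lost its call without set b replicate 1 or shEED replicate 2. RRM1 lost its call against set b without set b replicate 2 or shEED replicate 2. Against set a, POLE2 lost its call without any 1 array, CENPE and CCNB1 in 3 of 4 cases, CDC25A without set a replicate 2 and MCM5 without shEED replicate 2. Over all 42 genes, 14 higher and 1 lower against set a became 13 and 3 after a further quantile normalization. There 3201 of 16157 clusters rose and 2847 fell.

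**Figure D2:**
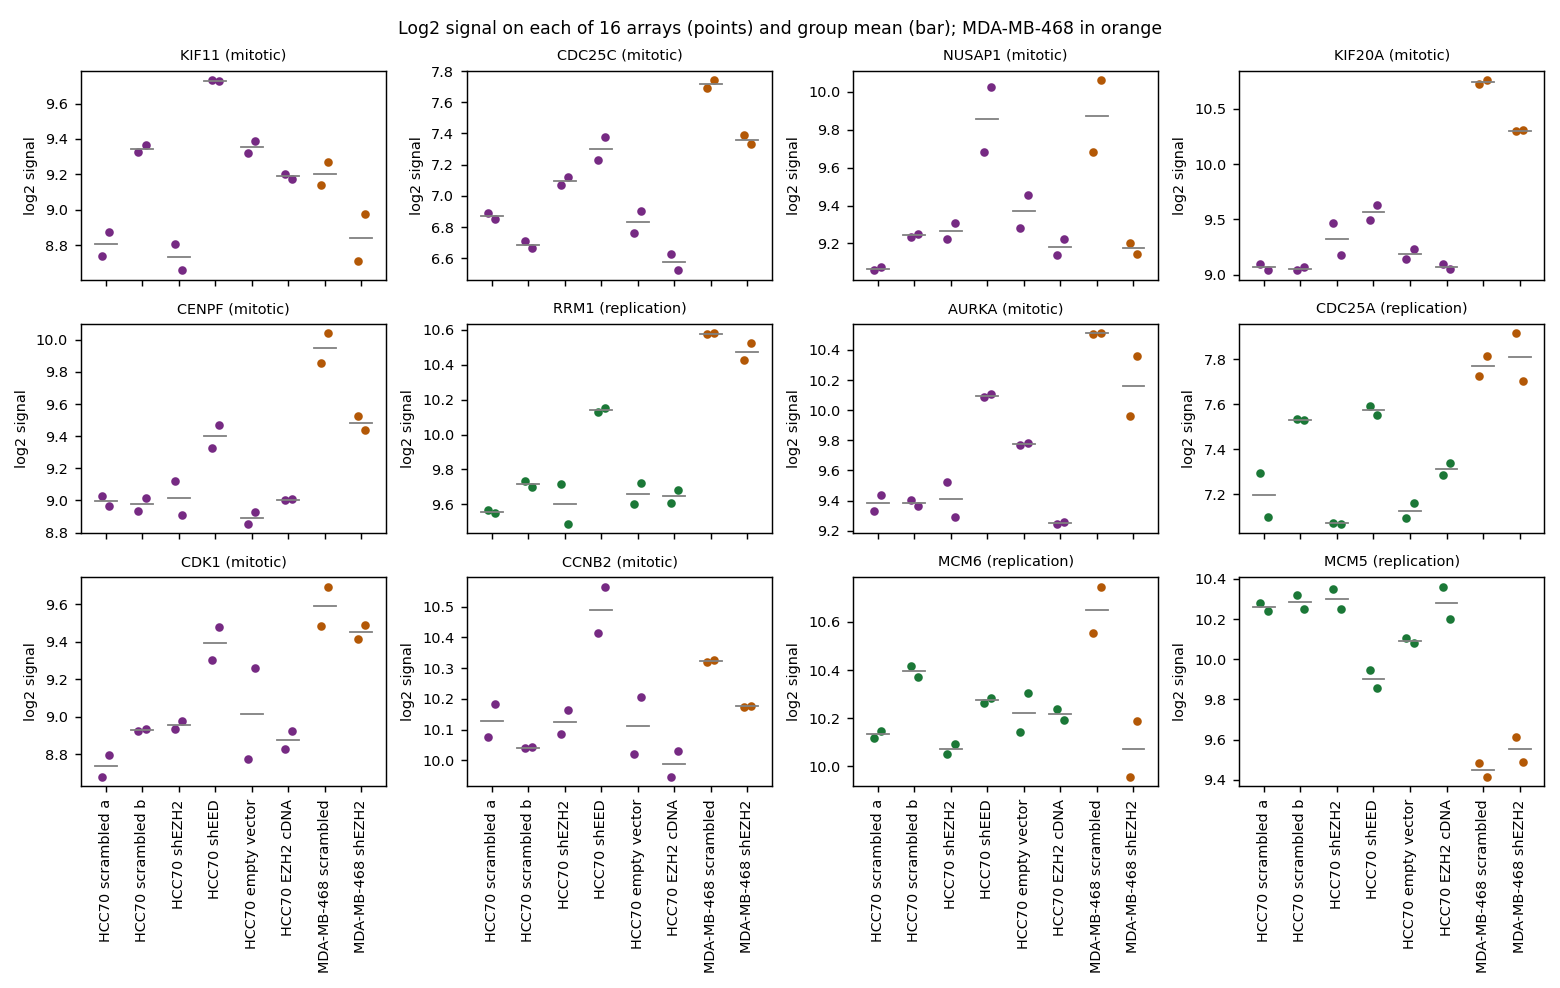
Log2 signal of the 12 genes called most often, on each of the 16 arrays (points) with the group mean (bar); replication genes green, mitotic genes purple, MDA-MB-468 arrays orange. The HCC70 shEED arrays stood highest among HCC70 for AURKA at 10.09 and 10.10, and the MDA-MB-468 shEZH2 arrays lay below their controls for NUSAP1, at 9.20 and 9.15.

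With shEZH2 in MDA-MB-468 the genes that passed were lower. Of 22 mitotic genes 9 fell and none rose, and of 20 replication genes 1 fell and none rose, where 5.57% of all clusters fell and 2.73% rose (8.3% in all). The median change was -0.29 for the mitotic genes, -0.0036 for the replication genes and -0.021 for all clusters. Mitotic genes were below 0 in 20 of 22 cases, against 54.4% of all clusters, and for 16 of the 22 both shEZH2 arrays lay below both controls, against 29% of all clusters. No epithelial, basal-like or other cell type marker passed here, and all 5 epithelial markers were below 0.

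CENPE had the largest fall, from 7.41 and 7.82 with scrambled shRNA to 6.51 and 6.96 with shEZH2. The change was -0.88 (SE 0.20, adjusted p = 0.0202), or 1.84-fold. NUSAP1 was 9.68 and 10.06 with scrambled shRNA and 9.20 and 9.15 with shEZH2, with a change of -0.70 (SE 0.13, adjusted p = 0.00976). Its control duplicates were further apart than those with shEZH2. BUB1, a checkpoint kinase at the kinetochore, went from 10.03 and 10.14 to 9.47 and 9.57, a change of -0.57 (SE 0.077, adjusted p = 0.00198), and its groups lay far from overlap. CENPF was 9.85 and 10.04 with scrambled shRNA and 9.53 and 9.44 with shEZH2 (-0.46, SE 0.095, adjusted p = 0.0151). KIF20A was 10.72 and 10.76 with scrambled shRNA and 10.30 and 10.31 with shEZH2, with duplicates close together, and changed by -0.44 (SE 0.094, adjusted p = 0.0183). The remaining falls were PLK1, the Polo kinase (-0.38), TOP2A, the topoisomerase that untangles chromosomes (-0.37), KIF11 (-0.36) and CDC25C (-0.36). KIF11 measured 9.14 and 9.27 with scrambled shRNA and 8.71 and 8.98 with shEZH2, and CDC25C 7.69 and 7.74 with scrambled shRNA and 7.39 and 7.33 with shEZH2. In both the groups did not overlap.

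Of the 6 spindle and kinetochore genes 5 fell, and TPX2 was at -0.22 (adjusted p = 0.0906). Of the mitotic entry genes CDC25C alone passed. CCNB1 was at -0.32 (adjusted p = 0.0528). CDK1 was 9.48 and 9.69 with scrambled shRNA and 9.42 and 9.49 with shEZH2, with overlapping groups and a change of -0.14. CCNB2 was 10.32 and 10.33 with scrambled shRNA and 10.17 and 10.18 with shEZH2 (-0.15, adjusted p = 0.303). Of the kinases and checkpoint genes BUB1 and PLK1 passed. AURKA was 10.51 and 10.51 with scrambled shRNA and 9.96 and 10.36 with shEZH2, lower on both arrays but with duplicates far apart, and missed the threshold (-0.35, adjusted p = 0.0818). FOXM1 (0.043) and AURKB (0.018) were the mitotic genes above 0, and both lay below 0 after each array was centred on its median.

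MCM6 was the replication gene that fell. It measured 10.55 and 10.75 with scrambled shRNA and 9.96 and 10.19 with shEZH2, without overlap, and changed by -0.58 (SE 0.095, adjusted p = 0.00483). The other MCM genes lay on both sides of 0. MCM2 was at 0.17, MCM3 at 0.19, MCM4 at -0.18, MCM5 at 0.10 and MCM7 at 0.071, and none passed. MCM5 measured 9.48 and 9.42 with scrambled shRNA and 9.61 and 9.49 with shEZH2, both shEZH2 arrays above the controls. GINS2, a part of the replicative helicase complex, had the highest change of the 42 genes (0.27, adjusted p = 0.0988), and CCNE2 the lowest of the other replication genes (-0.39, adjusted p = 0.168). RRM1 measured 10.58 and 10.58 with scrambled shRNA and 10.43 and 10.52 with shEZH2 and CDC25A 7.72 and 7.81 with scrambled shRNA and 7.91 and 7.70 with shEZH2, and their changes were -0.10 and 0.041. The 3 nucleotide supply genes lay at -0.10 each.

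The count in MDA-MB-468 rested on particular arrays. Without scrambled replicate 2 or shEZH2 replicate 1 fewer mitotic genes passed, and fewer of all clusters passed as well. MCM6 missed the threshold without scrambled replicate 2. With 1 array left out in turn, the change ran from -0.89 to -0.51 for NUSAP1 and from -0.70 to -0.46 for MCM6. NUSAP1 and PLK1 lost their calls only without scrambled replicate 2. CENPE, KIF20A and TOP2A also lost theirs without shEZH2 replicate 1, CENPF without shEZH2 replicate 2, and CDC25C and KIF11 in 3 of the 4 cases. None of the 42 passed when the 4 MDA-MB-468 arrays were fitted alone, without the spread of the HCC70 duplicates. In that fit 7 of 14714 clusters rose and 13 fell, so few calls were left for any gene. There 10 mitotic and 1 replication gene were lower at an unadjusted p under 0.05, not set here against the share of all clusters. BUB1 passed whichever of the 4 arrays was left out, with a change between -0.62 and -0.51.

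With shEZH2 in HCC70 the outcome depended on the control. Against set a none of the 42 genes passed, where 7.3% of all clusters rose and 4.06% fell (11.4% in all). At an unadjusted p under 0.05 there were 3 higher genes, CDC25C, KIF20A and AURKB, and 2 lower ones, CDC6 and BIRC5. Of all 16175 clusters, 2475 were higher and 1754 lower at this p, a larger share in both directions. The highest change was that of AURKB, the kinase of the chromosomal passenger complex (0.28, SE 0.10, adjusted p = 0.0935), and the lowest that of BIRC5, or survivin, its partner (-0.29, SE 0.11, adjusted p = 0.127). Without shEZH2 replicate 2, 1 mitotic gene rose and 1, BIRC5, fell, and without shEZH2 replicate 1, 1 replication gene fell. With both sets pooled as the control, 3 mitotic genes were higher and 1 lower, and 3 replication genes lower. Of 16175 clusters 1472 were then higher and 1576 lower. Against set a alone the median change was 0.038 for replication genes, 0.010 for mitotic genes and 0.0083 for all clusters. The mitotic median lay below 0 after centring or a further quantile normalization.

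Against set b, 4 of 20 replication genes fell and none rose, and 3 of 22 mitotic genes rose and 1 fell, where 11.3% of all clusters rose and 15.4% fell (26.7% in all). The 4 lower replication genes were CDC25A (-0.46, SE 0.089, adjusted p = 0.00283), MCM7 (-0.38, SE 0.083, adjusted p = 0.00587), MCM6 (-0.32, SE 0.095, adjusted p = 0.026) and CDC6 (-0.26, SE 0.079, adjusted p = 0.0302). MCM6 measured 10.12 and 10.15 on the set a arrays, 10.42 and 10.37 on the set b arrays, 10.26 and 10.29 with shEED, 10.05 and 10.09 with shEZH2, 10.14 and 10.30 with the empty vector and 10.24 and 10.19 with EZH2 cDNA in HCC70. The shEZH2 arrays were below every set b array and just below set a. Of the 20 replication genes 15 were below 0, against 49.6% of all clusters, with a median of -0.17, against 0.0026 for all clusters. The rising mitotic genes were CDC25C (0.41, SE 0.081, adjusted p = 0.00327), AURKB (0.33, SE 0.10, adjusted p = 0.0289) and CDC20 (0.26, SE 0.081, adjusted p = 0.0313). KIF11 fell (-0.61, SE 0.10, adjusted p = 0.000853), the largest change of the 42, while against set a it was at -0.072. After centring each array on its median the split of 3 higher and 5 lower genes became 1 and 6. Of 16175 clusters 1047 then rose and 2901 fell. After a further quantile normalization the split was 5 and 5, where 2075 of 16157 clusters rose and 2362 fell. CDC25C, CDC25A, MCM7 and KIF11 passed whichever array was left out, and MCM6 lost its call without any 1 of the 4 arrays. AURKB and CDC6 passed only without shEZH2 replicate 1, and CDC20 only without shEZH2 replicate 2. Without set b replicate 1, or replicate 2, fewer of these genes passed, and fewer of all clusters passed as well.

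The scrambled sets differed from each other in some of these same genes. Set b was higher than set a in KIF11 (0.54, SE 0.10, adjusted p = 0.00258), RRM2 (0.34, SE 0.10, adjusted p = 0.0254) and CDC25A (0.33, SE 0.089, adjusted p = 0.0197), and lower in CDC20 (-0.38, SE 0.081, adjusted p = 0.00657), which makes 3 higher and 1 lower of 42, where 15.3% of all clusters were higher and 7.41% lower (22.7% in all). KIF11, CDC25A and CDC20 are also 3 of the 8 genes that passed for shEZH2 against set b. KIF11 was called whichever array was left out, CDC20 lost its call without set a replicate 2 or set b replicate 1, and CDC25A and RRM2 lost theirs without either of these or set b replicate 2. Whether the sets differ by culture, infection or array run is not stated in the labels.

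**Figure D3:**
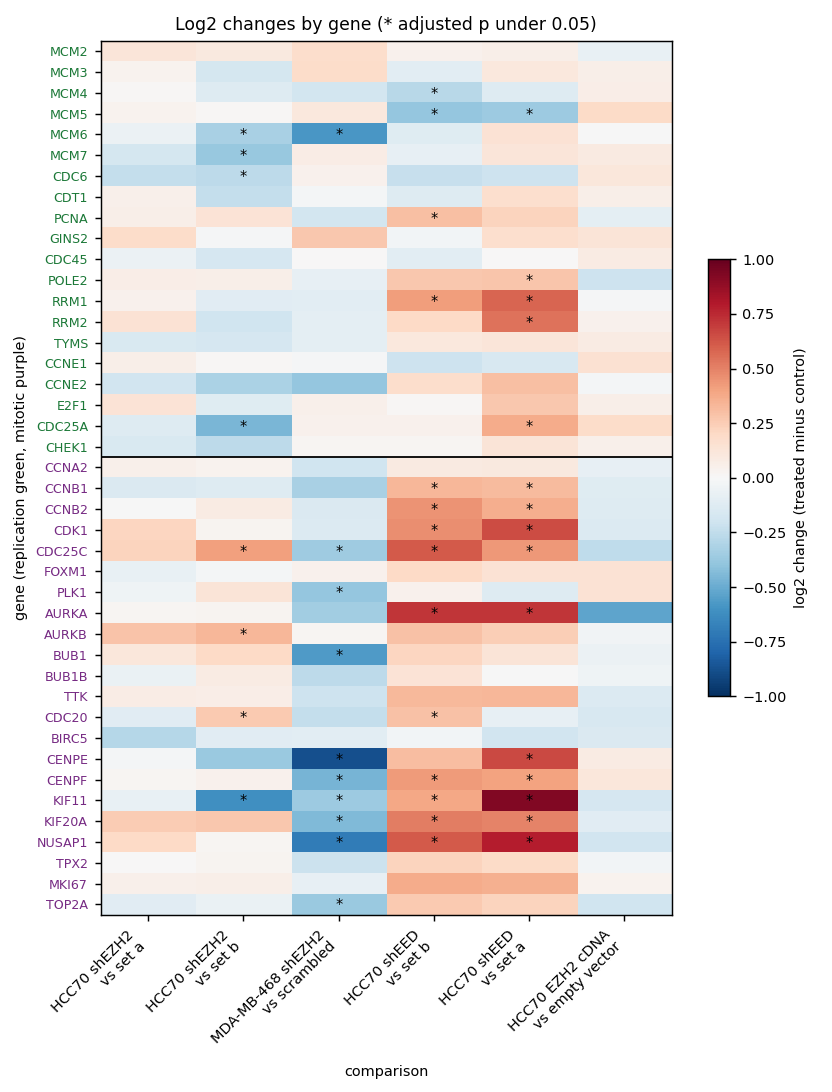
Log2 change (red higher, blue lower) of every gene in the 6 treatment comparisons, replication genes above the line and mitotic genes below, with an asterisk at an adjusted p under 0.05. The mitotic rows are mainly red with shEED and mainly blue with shEZH2 in MDA-MB-468, with KIF11 at 0.92 against set a and CENPE at -0.88.

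With EZH2 cDNA none of the 42 genes passed against the empty vector, where 0.909% of all clusters rose and 0.068% fell (0.977% in all). Unadjusted p-values under 0.05, not set here against the share of all clusters, were found for 1 higher gene, MCM5, and 4 lower ones, AURKA, CDC25C, POLE2 and TOP2A. AURKA was closest, at -0.52 (SE 0.12, adjusted p = 0.0612), from 9.77 and 9.78 to 9.25 and 9.26. The groups did not overlap, and the gene passed in 4 of the other settings, with an adjusted p of 0.0279 when only clusters with a single gene symbol were tested. The scrambled HCC70 arrays lay between the 2 groups and nearer the cDNA arrays, at 9.33 and 9.44 on set a and 9.40 and 9.36 on set b. MCM5 had the highest change (0.19, SE 0.082, adjusted p = 0.449). The median change was -0.12 for mitotic genes, 0.056 for replication genes and 0.022 for all clusters.

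The shEZH2 effects of the lines were then compared directly, as the HCC70 change minus the MDA-MB-468 change. Mitotic genes passed in 1 direction, the HCC70 change lying above that of MDA-MB-468. There were 6 such genes of 22 with set a, where 8.97% of all clusters were higher and 4.27% lower (13.2% in all), and 7 with set b, where 8.17% were higher and 7.99% lower (16.2% in all). BUB1, CDC25C, CENPF, KIF20A, NUSAP1 and PLK1 passed with both sets, as did 4.36% of all clusters in this direction. The sets share the MDA-MB-468 and the shEZH2 arrays. The largest difference was NUSAP1 with set a (0.89, SE 0.18, adjusted p = 0.0103), set against 0.20 in HCC70 and -0.70 in MDA-MB-468. For CDC25C it was 0.58 (SE 0.11, adjusted p = 0.00839) with set a and 0.77 (SE 0.11, adjusted p = 0.00121) with set b. BUB1 was at 0.68 and 0.76, KIF20A at 0.70 and 0.71. Among replication genes MCM6 was higher with set a (0.52), and CDC25A (-0.50) and MCM7 (-0.45) were lower with set b. BUB1, CDC25C and KIF20A passed with both sets whichever array was left out. With set b fewer mitotic genes passed without set b replicate 1 or the MDA-MB-468 scrambled replicate 2. Fewer of all clusters were higher there as well. MCM6 lost its call without either set a array, the MDA-MB-468 scrambled replicate 2 or its shEZH2 replicate 1. MCM7 and CDC25A both missed the threshold without either set b array. Fitting only the groups compared left 2 mitotic genes with set a and 4 with set b. There 389 of 15863 clusters were higher with set a and 581 of 15771 with set b.

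The 5 mitotic genes CDC25C, CENPF, KIF11, KIF20A and NUSAP1 rose with shEED in HCC70 against both sets and fell with shEZH2 in MDA-MB-468. Of all clusters 0.457% met these 3 conditions together. The calls of these genes in MDA-MB-468 depended on scrambled replicate 2 of that line. None of them passed when only the MDA-MB-468 arrays were fitted, where 7 of 14714 clusters rose and 13 fell. The shEED calls of KIF11 and NUSAP1 against set b also depended on single arrays. The HCC70 and MDA-MB-468 comparisons have no array in common. The lines and the targeted genes both differ between them, so the line and the target cannot be told apart there. In HCC70 itself, shEZH2 raised CDC25C against set b, lowered KIF11 against set b, and left CENPF, KIF20A and NUSAP1 short of the threshold against either set, at 0.018 to 0.27.

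The scrambled controls differed between the lines before any knockdown. HCC70 had lower mitotic signals than MDA-MB-468 in 17 of 22 genes with set a and higher ones in 2, where 36.7% of all clusters were lower and 30.3% higher (67.1% in all). With set b it was 19 and 2, where 33.5% were lower and 28.3% higher (61.7% in all). Of the 20 replication genes 10 were lower and 3 higher with set a, and 10 and 6 with set b. The counts with both sets alike were 16 lower and 2 higher mitotic genes, and 10 lower and 3 higher replication genes, where 29.4% of all clusters were lower with both and 22.5% higher. These comparisons share the MDA-MB-468 controls.

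TTK, the checkpoint kinase MPS1, was furthest apart, at 7.81 and 7.94 on set a, 7.89 and 7.88 on set b and 9.55 and 9.92 in MDA-MB-468, a difference of -1.86 (SE 0.15, adjusted p = 5.87e-07) and -1.85 (SE 0.15, adjusted p = 6.21e-07). KIF20A differed by -1.67 and -1.69, BIRC5 by -1.26 and -1.43, BUB1 by -1.23 and -1.32, and CENPE by -1.50 and -1.15. TYMS, thymidylate synthase, was the replication gene with the largest deficit in HCC70 (-1.14 and -1.12), and AURKA stood at -1.12 and -1.13. PLK1 (0.44 and 0.27) and FOXM1 (0.47 and 0.41) were the mitotic genes higher in HCC70. MCM2 (1.11 and 1.13), MCM5 (0.81 and 0.84) and CCNE2, the second cyclin E (0.75 and 0.88), were the replication genes higher with both sets. E2F1 (0.47), MCM4 (0.33) and MCM7 (0.28) were higher with set b. The smallest deficits to pass were those of TPX2 (-0.28) and CDC20 (-0.30) with set a, and of CDC25A (-0.24) and MCM6 (-0.26) with set b. With set a TPX2 lost its call without the MDA-MB-468 scrambled replicate 2. With set b AURKB lost its call without any 1 of the 4 arrays. CCNB2, MKI67, CDC25A and MCM6 lost theirs without either set b array or the MDA-MB-468 scrambled replicate 2. MCM7 lost its call without set b replicate 2 or that MDA-MB-468 array, MCM4 without set b replicate 2 and RRM2 without that MDA-MB-468 array. KIF11 was lower with set a (-0.40) and at 0.14, not past the threshold, with set b.

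**Figure D4:**
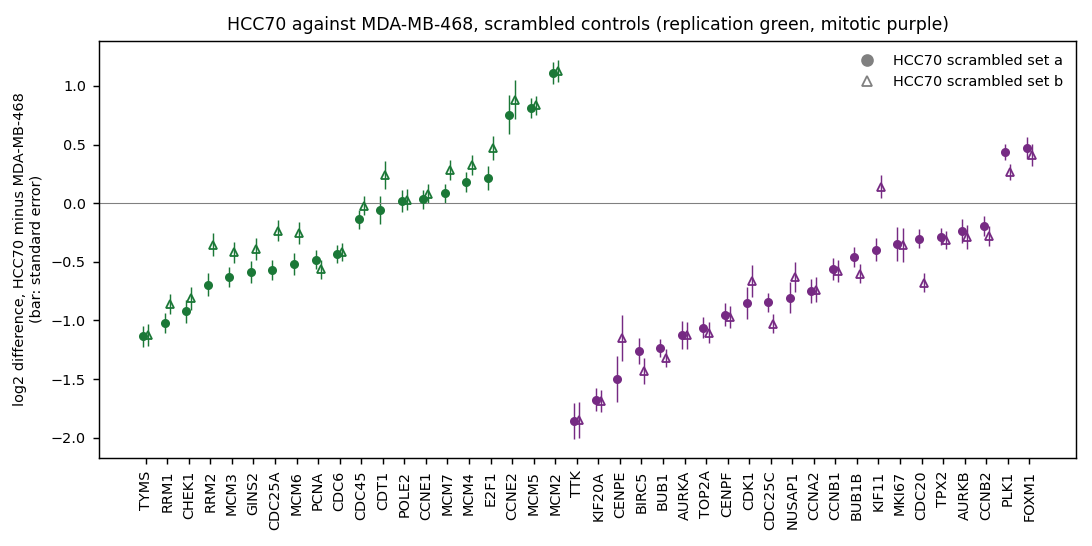
Difference in log2 signal between HCC70 and MDA-MB-468 cells with scrambled shRNA for the 42 genes, ordered within each group, with set a as filled circles, set b as open triangles and standard errors as bars. Most mitotic genes lie below 0, down to -1.86 for TTK, and MCM2 lies highest at 1.11 and 1.13.

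Each gene was also set against its own mean over the arrays of its line, 12 in HCC70 and 4 in MDA-MB-468, and the median of these deviations was taken on each array, as a description without a test. Such deviations compare a gene with itself and say nothing of levels between genes or lines. For the mitotic genes the median deviation was 0.25 and 0.31 on the shEED arrays, the highest of HCC70. It was -0.043 and -0.019 on set a, -0.066 and -0.056 on set b, and 0.062 and -0.021 with shEZH2. The empty vector gave -0.068 and 0.051, and EZH2 cDNA -0.11 and -0.098, the lowest of the line. In MDA-MB-468 the mitotic medians were 0.11 and 0.18 with scrambled shRNA and -0.18 and -0.11 with shEZH2. For the replication genes the shEED arrays, at 0.12 and 0.089, lay beside set b, at 0.11 and 0.098, and set a was at -0.038 and -0.029. The HCC70 shEZH2 arrays were at -0.0018 and -0.063, and all 4 MDA-MB-468 arrays lay between -0.032 and 0.030. In MDA-MB-468 the mitotic medians of the groups did not overlap, and the replication medians did.

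**Figure D5:**
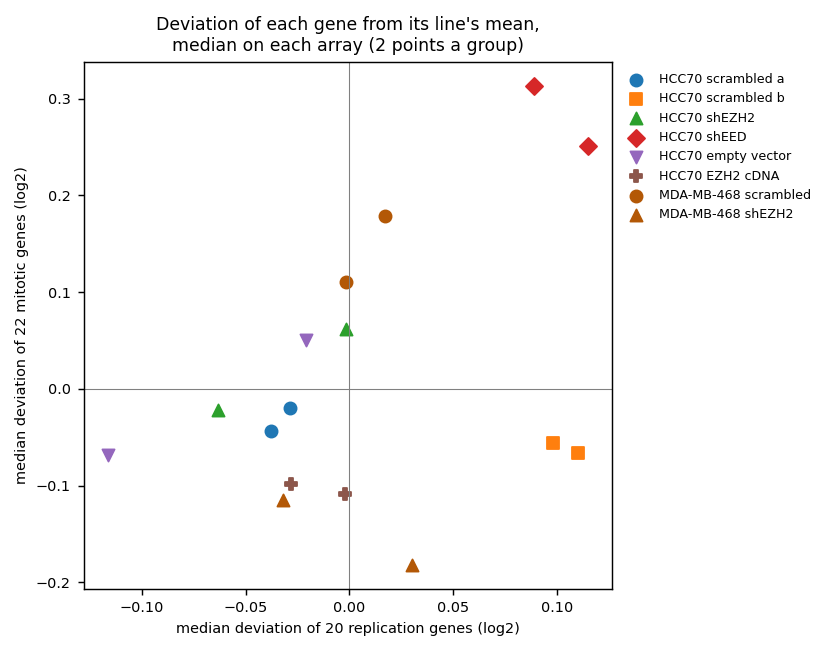
Median deviation of the 20 replication genes (x axis) and the 22 mitotic genes (y axis) on each array, in log2 units, each gene taken against its own mean over the arrays of its line, with 1 symbol per group and 2 points per group. The HCC70 shEED arrays lie highest, at 0.25 and 0.31 for the mitotic genes, and the MDA-MB-468 shEZH2 arrays lowest, at -0.18 and -0.11.

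Other genes of the same pathways, from lists of further replication, mitotic and G1 regulator genes, gave the following counts, to be read against the shares of all clusters that passed. With shEED these shares were 6.63% higher and 7.53% lower against set b and 22.8% and 13.9% against set a. With shEZH2 they were 7.3% and 4.06% against set a, 11.3% and 15.4% against set b, and 2.73% and 5.57% in MDA-MB-468. Of 40 other mitotic genes, 15 rose and none fell with shEED against set b and 18 rose and none fell against set a, while 6 fell and none rose with shEZH2 in MDA-MB-468. The largest changes with shEED were SPC25 (0.68), PTTG1 (0.63) and CDC25B (0.63) against set b, and KIF23 (1.08), SMC4 (0.87) and SMC2 (0.74) against set a. In MDA-MB-468 they were DLGAP5 (-0.46), CKS2 (-0.43) and CKAP2 (-0.37). SPC25 is a kinetochore subunit, PTTG1 is securin, and SMC2 and SMC4 are the core of condensin. With shEZH2 in HCC70, 1 rose and 2 fell against set a, with CKS2 at 0.39, MAD2L1 at -0.49 and INCENP at -0.29. Against set b, 3 rose and 8 fell, with SGO1 at -0.70, CKS2 at 0.65 and KIF23 at -0.59. None of the 40 passed with EZH2 cDNA, where 0.977% of all clusters did.

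Of 32 other replication genes, 7 rose and none fell with shEED against set b, 11 rose and 2 fell against set a, and 3 fell and none rose with shEZH2 in MDA-MB-468. The leading genes with shEED were RPA2 (0.54), PRIM1 (0.53) and GINS1 (0.50) against set b, and DSCC1 (0.73), POLE (0.64) and CDCA7 (0.53) against set a. In MDA-MB-468 ORC1 (-0.38), E2F2 (-0.35) and POLA1 (-0.34) fell. With shEZH2 in HCC70, 1 rose and 2 fell against set a, and 5 rose and 5 fell against set b. E2F2, an activating E2F factor, fell in all 3 shEZH2 comparisons, by 0.70 against set a, 0.62 against set b and 0.35 in MDA-MB-468. The HCC70 comparisons share the shEZH2 arrays, and the share of all clusters that fell in all 3 was not counted. RFC3 (-0.29) and MCM10 (0.22) were the others against set a, and RFC4 (0.57) and PRIM1 (0.49) led against set b. None passed with EZH2 cDNA, where 0.977% of all clusters did.

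Of 27 genes for D-type cyclins, CDKs, RB family members, E2F partners and CDK inhibitors, 6 rose and 4 fell with shEED against set b, and 11 rose and 3 fell against set a. CCND1, cyclin D1, and CDK6, its kinase, fell against set b (-0.84 and -0.76), and the inhibitor CDKN2D rose (0.54). MYC (1.13), E2F7 (0.75) and RBL1 (0.74) led against set a, where the share of all clusters was 22.8% higher. Set b was itself higher than set a in 10 of these 27 genes and lower in none, where 15.3% of all clusters were higher. With shEZH2 in HCC70, 2 rose against set a, TFDP2 (0.80) and CDKN1A, the inhibitor p21 (0.48). Against set b, 4 rose and 6 fell, with MYC at -0.90, CCND1 at -0.63 and CDKN2B at -0.53. LIN54, the DNA-binding subunit of the DREAM complex, was the gene that fell with shEZH2 in MDA-MB-468 (-0.46, adjusted p = 0.0314). None of these genes passed with EZH2 cDNA, where 0.977% of all clusters did.

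Over the 6 treatment comparisons 25 of the 42 genes passed at least once and 17 in none, a share close to the 54.1% of all clusters that passed at least once. The 17 were MCM2, MCM3, CDT1, GINS2, CDC45, TYMS, CCNE1, CCNE2, E2F1 and CHEK1 among the replication genes, and CCNA2, FOXM1, BUB1B, TTK, BIRC5, TPX2 and MKI67 among the mitotic genes. MKI67, which encodes the proliferation marker Ki-67, ranged from -0.084 with shEZH2 in MDA-MB-468 to 0.37 with shEED against set b. KIF11 and CDC25C passed most often, in 4 of the 6. The share of all clusters passing as often was not counted. The 6 are not independent, since each HCC70 knockdown enters against both sets with the same treated arrays. For KIF11, set b was itself higher than set a. KIF11 rose with shEED against both sets and fell with shEZH2 against set b and in MDA-MB-468. CDC25C rose with shEED against both sets and with shEZH2 against set b, and fell with shEZH2 in MDA-MB-468.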

How the data were processed

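Total RNA of 16 samples was hybridised to Affymetrix Human Gene 1.0 ST arrays, 200 ng each, per the labels' protocols. The deposited table holds log2 signals per transcript cluster, made by the authors with RMA in Affymetrix Expression Console, per the submitters' processing notes. RMA corrects background, quantile-normalizes the arrays and summarises probes. No software version or genome build is printed, because each was not given in the sources used here. Genes were named through the platform annotation, where 19460 of 33297 clusters have 1 gene symbol, 1754 have several and 12083 have none. Clusters at log2 6 or more on at least 2 arrays were kept (16175), and 17122 were left out.

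The 16 arrays entered 1 limma fit (3.58.1, R 4.3.3), with a mean for each of the 8 groups, 8 residual and 3.69 prior degrees of freedom, and p-values were adjusted by Benjamini-Hochberg over all clusters tested within each of 11 comparisons. SE is the standard error of a log2 change from this fit, and each group had 2 arrays, whose number limits the precision. Alternatives covered the floor, centring, quantile normalization, clusters, variance model, arrays fitted, control set, a replicate block and leaving out each array. Replicate numbers did not pair the arrays (correlations of deviations between -0.044 and 0.077).

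The genes, lists and tests were chosen with earlier results of these data known. Named genes were all called in a comparison if 12 or fewer, otherwise the 6 largest and 2 smallest changes in each direction, the largest rise and fall, array values for the 12 called most often, and the 3 largest called of each other list. Other values printed were chosen after they were seen.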

Additional observations from a re-analysis of the deposited data

Results flagged for a closer look

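Genes are listed here where the shEZH2 change in HCC70 minus the shEZH2 change in MDA-MB-468 passed limma's test at an adjusted p under 0.05, that is, where the lines differed in their response. With scrambled set a as the HCC70 control, the difference was 0.89 (SE 0.18, adjusted p = 0.0103) for NUSAP1, 0.70 (SE 0.13, adjusted p = 0.00732) for KIF20A, 0.68 (SE 0.11, adjusted p = 0.00326) for BUB1 and 0.58 (SE 0.11, adjusted p = 0.00839) for CDC25C. It was 0.52 (SE 0.13, adjusted p = 0.0267) for MCM6, 0.48 (SE 0.13, adjusted p = 0.0356) for CENPF and 0.34 (SE 0.10, adjusted p = 0.0453) for PLK1. With set b it was 0.77 (SE 0.11, adjusted p = 0.00121) for CDC25C, 0.76 (SE 0.11, adjusted p = 0.000947) for BUB1, 0.72 (SE 0.18, adjusted p = 0.0219) for NUSAP1 and 0.71 (SE 0.13, adjusted p = 0.00468) for KIF20A. PLK1 followed at 0.51 (SE 0.10, adjusted p = 0.00612), CDC20 at 0.51 (SE 0.11, adjusted p = 0.0121) and CENPF at 0.50 (SE 0.13, adjusted p = 0.0256). Below 0 with set b were CDC25A at -0.50 (SE 0.13, adjusted p = 0.0199) and MCM7 at -0.45 (SE 0.12, adjusted p = 0.0237).

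Not all of these rest alike on every array. PLK1 with set a passed with 1 of the 8 arrays left out and missed the threshold with each of the other 7, CENPF passed in 3 of 8 cases with either set, and NUSAP1 with set b in 3 of 8. MCM6 with set a and MCM7 and CDC25A with set b passed in 4 of 8, and CDC20 in 6. The sets share the MDA-MB-468 and shEZH2 arrays, and the groups have 2 arrays each, so no array was tested for standing apart from its duplicate.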

How the results depend on the processing

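Over the 42 genes, 11 comparisons and all alternatives but the pooled sets, 198 of 6342 changes had the other sign. None of these was called in the reported fit or under the alternative, and the largest reported one was 0.20 in size. Medians near 0 also turned, as for shEZH2 against set b, where centring put the mitotic median at -0.038 in place of 0.039. For the called genes and the highest and lowest change of each comparison, 1714 values kept their side of the threshold, 208 lost it and 8 gained it, and 526 counts stayed within 1.5 times the reported count while 86 did not. The 526 include counts that were 0 and stayed 0. Fitting only the arrays compared moved most. With shEED against set b it gave 17 mitotic and 4 replication genes higher and 4 replication genes lower. There 2570 of 14718 clusters rose and 2071 fell. Against set a it gave 7 replication genes higher and 2 lower, where 4422 of 14926 clusters rose and 3248 fell. With shEZH2 it gave 1 mitotic gene higher and 2 replication genes lower against set b, and 0 of either group lower in MDA-MB-468. Against set b 877 of 14797 clusters rose and 1475 fell. In MDA-MB-468, 7 of 14714 rose and 13 fell. Between set b and set a it gave 3 mitotic genes higher, 3 lower and 6 replication genes higher. There 3754 of 14777 clusters were higher and 2696 lower. For the difference between the lines it gave 2 mitotic and 0 replication genes higher with set a, where 389 of 15863 clusters were higher. With set b it gave 4 mitotic higher and 0 replication lower, where 581 of 15771 clusters were higher and 629 lower. Centring each array gave 6 mitotic, 1 replication gene higher and 1 lower for shEED against set b, where 771 of 16175 clusters rose and 976 fell. For shEZH2 against set b it gave 1 mitotic gene higher, where 1047 rose. Without the floor shEED against set b gave 1 replication gene higher and 1 lower, where 810 of 33297 clusters rose and 1025 fell. There shEZH2 against set b gave 1 mitotic gene higher, where 1666 rose. In the line difference with set a 0 replication genes were higher, and 1064 clusters. A further quantile normalization gave 5 mitotic genes higher for shEZH2 against set b, 3 replication genes lower for shEED against set a, 1 replication gene higher in set b than set a, 5 higher in HCC70 than MDA-MB-468 with set a, and a replication minus mitotic median of 0.48 in place of 0.47 with EZH2 cDNA, a difference between levels of different probes that has no meaning in itself. After that normalization, of 16157 clusters 2075 were higher for shEZH2 against set b and 2847 lower for shEED against set a. Set b was higher than set a in 2158, and HCC70 than MDA-MB-468 with set a in 5569. Centring put the median difference of all clusters between HCC70 and MDA-MB-468 at -0.11 with set a. Both sets pooled gave 4 replication genes higher for shEED, and for shEZH2 3 mitotic genes higher, 1 lower and 3 replication genes lower. Of 16175 clusters 2731 were then higher for shEED, and for shEZH2 1472 were higher and 1576 lower. Trend and robust variances gave 2 replication genes lower for shEED against set a, where 2237 of 16175 clusters fell. A floor of 7 gave the same 2, where 1956 of 12778 fell. With trend 1 replication gene was lower for shEZH2 against set a, where 725 clusters fell. In the line difference with set b 1 was higher, where 1360 clusters were. AURKA, as 1 mitotic gene, passed as lower with EZH2 cDNA than with the empty vector in 4 settings. These were a floor of 7 (limma, adjusted p = 0.046), 1-symbol clusters (0.0279), trend (0.0406) and quantile normalization (0.0403). A replicate block raised 1 mitotic gene, AURKB, with shEZH2 against set a (limma, adjusted p = 0.0472) and moved no other count by over 1.5 times.

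Leaving out 1 array in turn assumes that a lone array varies like the other groups. It also changed the number of all clusters called, which is not given beside the counts below. It gave, for shEED against set b, 3 to 6 mitotic higher, 0 to 1 replication higher and 0 to 1 lower, and against set a 6 to 9, 2 to 3 and 0 to 1. For shEZH2 against set b it gave 1 to 3 mitotic higher and 2 to 4 replication lower. Against set a it gave 0 to 1 mitotic higher, 0 to 1 lower and 0 to 1 replication lower. In MDA-MB-468 it gave 1 to 9 mitotic lower, 0 to 1 replication higher and 0 to 2 lower. Between the sets it gave 0 to 1 mitotic lower and 0 to 2 replication higher. For the line difference it gave 0 to 1 replication higher and 0 to 1 lower with set a, and 4 to 7 mitotic higher, 0 to 1 replication higher and 0 to 3 lower with set b. Except where fewer arrays were fitted, the cause was not tested. With 2 arrays a group, a change missing the threshold is not shown to be absent.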
